A study of Mus musculus with 8 samples.

Results

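Fibro-adipogenic progenitors (FAPs) are the resident mesenchymal cells of skeletal muscle, and 9 genes that mark them were followed in the tibialis anterior of Klotho-deficient mice. The genes were Pdgfra, Cd34, Ly6a, Gsn, Dpt, Clec3b, Smoc2, Mfap5 and Pcolce. They were taken by gene symbol from a table of 12551 genes, and all 9 were present. RNA of the whole tibialis anterior, a fast hindlimb muscle, was sequenced from 4 wild-type (WT) and 4 homozygous Klotho-mutant (KL-/-) mice. All were males 7 weeks old, bred as littermates on a mixed background from heterozygous Klotho parents. The mutant allele was inherited through the germline and was not specific to muscle. The labels name no treatment. Klotho is a membrane and circulating protein made mainly in the kidney, where it serves as co-receptor for the phosphate-regulating hormone FGF23.

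FAPs lie between the muscle fibres and are recognised by the PDGF receptor alpha together with the surface proteins CD34 and Sca-1, the product of Ly6a. They lay down much of the interstitial matrix of muscle, release factors that act on satellite cells, and can become adipocytes or matrix-producing fibroblasts. In whole muscle they are a small minority of nuclei beside those of the fibres. Because the RNA came from the whole tissue, fewer cells of a type and less RNA per cell cannot be told apart in any value given here.

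Library totals ran from 20860262 to 26501093 counts in WT and from 22061526 to 29273758 in KL-/- muscle, so that 3 counts, taken as the limit of detection, stood at 0.102 to 0.144 CPM, the unit in which each count is scaled to its library's total. The 9 markers were far above that limit, from 154 counts of Clec3b in KL-/- replicate 3 to 15694 counts of Gsn in WT replicate 3. CPM were scaled with trimmed-mean (TMM) factors, which were 1.02 to 1.05 in WT and 0.950 to 0.980 in KL-/-. Genes of fast muscle fibres, the tissue the labels name, summed to between 135500 and 157400 CPM in WT and between 167200 and 216200 CPM in KL-/- libraries. Counts of the Klotho gene itself were not analysed here, so the genotypes rest on the labels. KL-/- replicate 3 alone had a batch date unlike that of the 7 remaining libraries, so an effect of the date and of that mouse cannot be told apart. The replicates are numbered muscles of separate titles, and p-values measure the spread between them.

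The level per kilobase of exon, which allows genes to be compared, ordered the markers in WT muscle from Gsn to Pdgfra. Gsn, which encodes the actin-severing protein gelsolin, had 189.8 ± 17.1 CPM per kb (SD, n = 4) and stood above the other 8. Smoc2 followed at 52.9 ± 14.8. Ly6a at 35.9 ± 4.83, Clec3b at 35.5 ± 8.73, Cd34 at 32.8 ± 8.76, Pcolce at 28.7 ± 10.7 and Dpt at 28.4 ± 5.99 CPM per kb formed a middle group whose neighbours differed by less than their SD. Mfap5 at 12.7 ± 5.14 and Pdgfra at 3.62 ± 1.42 CPM per kb were lowest. In KL-/- muscle Gsn at 102.9 ± 42.6 and Pdgfra at 2.02 ± 0.78 CPM per kb remained the ends of the order. Clec3b at 14.9 ± 7.35 and Dpt at 12.3 ± 5.63 lay below Ly6a at 31.1 ± 8.29 CPM per kb. Both had also been below Ly6a in WT, where Clec3b and Ly6a were nearly level. Clec3b moved from above Cd34 in WT to below it in KL-/- muscle, where Cd34 had 22.4 ± 2.69 CPM per kb. Ly6a moved from below Smoc2 to above it, with Smoc2 at 29.9 ± 12.5 CPM per kb, a difference smaller than either SD.

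Of the 9 markers, 3 were lower in KL-/- muscle at a false discovery rate (FDR) under 0.05 by edgeR's quasi-likelihood test with Benjamini-Hochberg adjustment over all 12551 genes, and 0 were higher. Gsn, Dpt and Clec3b fell. Among all genes, 6.67% were lower and 7.35% were higher at this threshold, 837 and 922 genes. When counts were scaled by library totals alone, 2127 genes were lower and 492 higher, the median of all genes shifted to -0.13, and 5 markers were called, Cd34 and Pcolce in addition to those 3. All 9 markers had a negative log2 fold change of KL-/- over WT, from -0.21 for Ly6a to -1.26 for Clec3b, as did 52.4% of all genes. Their median was -0.84, beside -0.02 over all genes. An unadjusted p under 0.05 with a lower level in KL-/- was reached by 7 of the 9 (77.8%), beside 16.4% of all genes. In 4 of the 9, Cd34, Gsn, Dpt and Clec3b, every KL-/- library lay below every WT library (44.4%), beside 9.47% of all genes.

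**Figure D1:**
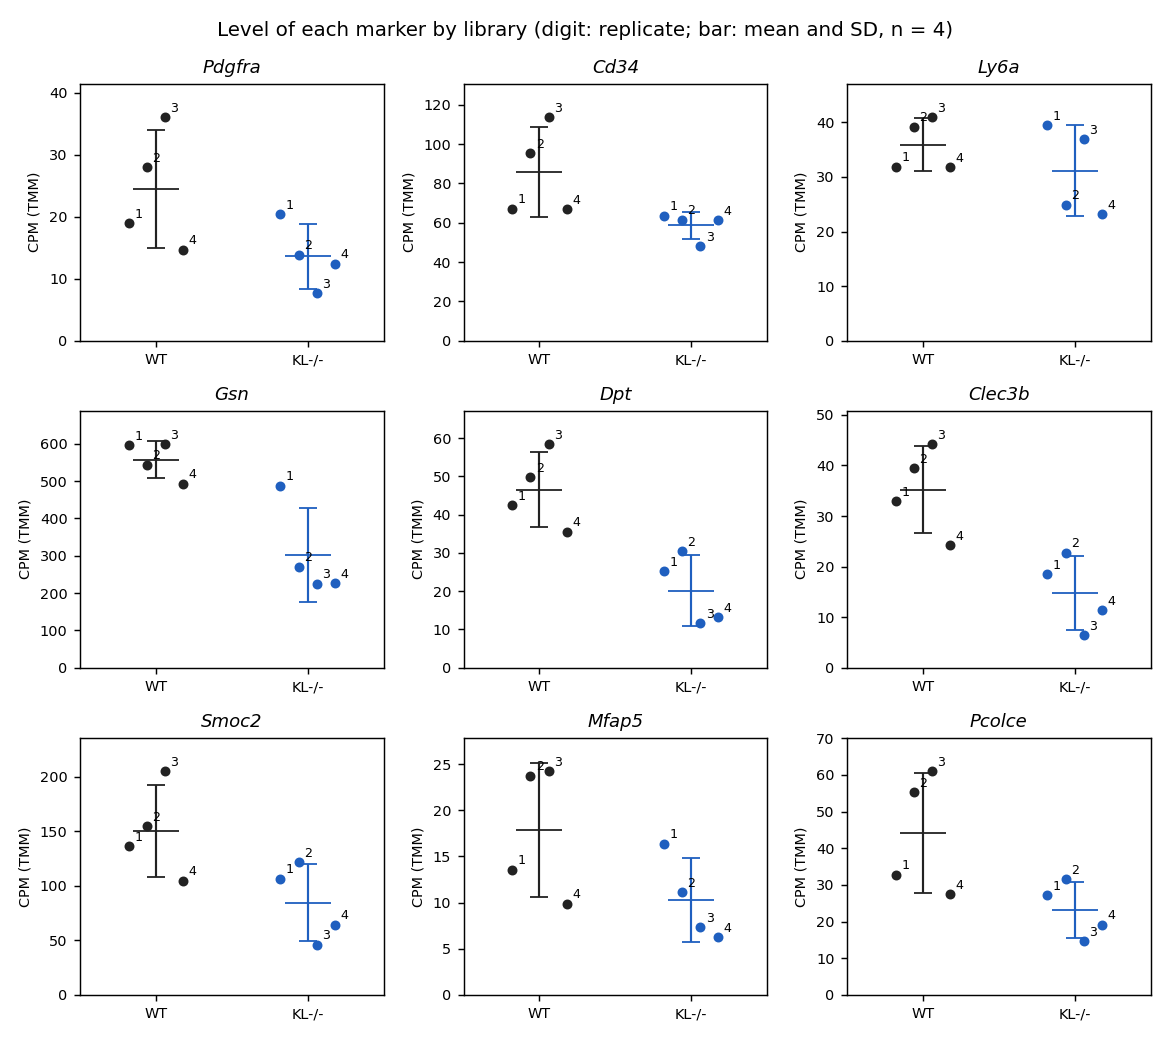
Level of each of the 9 markers in CPM with TMM factors (y axis, from 0) in the 4 WT (black) and 4 KL-/- (blue) libraries, with replicate numbers beside the points and the mean and SD as bars. The genotypes do not overlap for Cd34, Gsn, Dpt and Clec3b, and WT replicate 3 is the highest library for all 9.

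Pdgfra (chr5:75152291-75198204, plus strand, mm10) encodes the receptor tyrosine kinase by which FAPs are usually sorted, and Cd34 (chr1:194938821-194961292, plus strand) a sialomucin shared with endothelial cells. Gsn lies at chr2:35256359-35307902 and Dpt at chr1:164796732-164824266, both on the plus strand. Since these markers varied together across libraries, the 100 bases before a start site annotated by RefSeq (GRCm38.p6) are given for these 4, of which Pdgfra and Cd34 serve in sorting FAPs and Gsn and Dpt passed the test. All are on the plus strand, 5′ to 3′, and capitals mark matches on either strand of the TATA box (TATAAA), the box named CCAAT, the GC box (GGGCGG), the E-box (CANNTG), the AP-1 site (TGANTCA) and the TEAD site (GGAATG), and matches of different motifs may share bases.
Pdgfra (chr5:75152151-75152250): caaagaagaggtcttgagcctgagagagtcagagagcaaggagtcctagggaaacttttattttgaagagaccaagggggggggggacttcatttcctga
Cd34 (chr1:194938721-194938820): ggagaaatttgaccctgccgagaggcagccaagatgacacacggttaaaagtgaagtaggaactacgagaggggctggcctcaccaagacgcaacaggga
Gsn (chr2:35256259-35256358): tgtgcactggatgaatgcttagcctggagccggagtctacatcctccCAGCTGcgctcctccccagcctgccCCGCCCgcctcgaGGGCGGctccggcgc
Dpt (chr1:164796563-164796662): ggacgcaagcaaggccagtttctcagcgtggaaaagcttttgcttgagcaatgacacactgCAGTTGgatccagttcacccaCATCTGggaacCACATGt

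No match stood in these 100 bases of Pdgfra or Cd34, while those of Gsn held 1 E-box and 2 GC box matches and those of Dpt held 3 E-box matches. RefSeq promoter windows of 300 bases, reaching 250 before and 50 after the start, were at hand for 5 of the 9 markers, namely Pdgfra, Cd34, Gsn, Dpt and Pcolce, in 7 windows, 3 of them of Gsn. The E-box was in 6 of these 7 windows and in 72.3% of all 32851 promoters of the same length. The GC box was in 4 of 7 beside 35.7%, the box named CCAAT in 2 beside 37.4% and the TATA box in 1, that of Dpt, beside 13.6%. The AP-1 and TEAD letters were in 0 of 7, beside 7.81% and 14.7% of all promoters. GC content of the 300-base windows around the starts shown was 63.7% for Gsn, 51% for Pdgfra, 50% for Cd34 and 48.7% for Dpt, beside a median of 52.7%. These letters are a description of the windows and were not tied to any factor.

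Pdgfra stood at 18.9, 27.9, 36.1 and 14.7 CPM in WT replicates 1 to 4 and at 20.4, 13.9, 7.67 and 12.4 CPM in KL-/- replicates 1 to 4. KL-/- replicate 1 lay within the WT range and the other 3 lay below it, so that the groups overlapped. The mean was 24.4 ± 9.54 CPM in WT and 13.6 ± 5.24 CPM in KL-/- (SD, n = 4). The log2 fold change was -0.84 (SE 0.32) with an FDR of 0.11 by edgeR's quasi-likelihood test, and no call was made.

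Cd34 measured 67.2, 95.5, 113.8 and 66.9 CPM in the WT replicates 1 to 4, in that order, against 63.5, 61.6, 48.2 and 61.3 CPM in the KL-/- replicates 1 to 4. Every KL-/- library lay below every WT library, by a margin of a few CPM between the nearest pair. The log2 fold change was -0.55 (SE 0.17) with an FDR of 0.0635 by edgeR's quasi-likelihood test, so that the groups were separate while the call was not made. Cd34 was called when WT replicate 1 (FDR 0.0496) or WT replicate 4 (FDR 0.0426), the pair of lower WT libraries, was left out. An antisense gene, Gm16897, shares 148 exonic bases (5.65%) of Cd34, and whether the counting used strand was not stated.

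Ly6a (chr15:74994877-74998031, minus strand) encodes Sca-1, a lipid-anchored surface protein of FAPs and of mouse endothelial cells. It measured 31.9, 39.2, 41.0 and 31.8 CPM in the WT replicates 1 to 4, in that order, against 39.5, 25, 37.0 and 23.1 CPM in the KL-/- replicates 1 to 4. KL-/- replicates 1 and 3 lay within the WT range and replicates 2 and 4 lay below it. The log2 fold change was -0.21 (SE 0.18, FDR 0.456), the smallest of the 9 in size. Of the 50-base words in its exons, 19% also occur in exons of other genes, Ly6c1, Ly6c2 and Ly6i among them, so that its count is uncertain.

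Markers of endothelial cells, which make CD34 and Sca-1 too, are given beside these values. Of 12 such genes, 1 was lower and 0 were higher, beside 6.67% and 7.35% of all genes. With library totals 4 were lower, beside 16.9% of all genes, and with DESeq2 3, beside 9.11%. The median log2 fold change of the 12 was -0.22, and 11 were negative, as were 52.4% of all genes. Kdr, the VEGF receptor of endothelium, fell from 102.1 ± 23.6 to 54.8 ± 4.90 CPM (log2 fold change -0.90, SE 0.15, FDR 0.00781). The endothelial sum ran from 658.8 to 938.7 CPM in WT and from 638.1 to 685.5 CPM in KL-/- libraries, and its highest value, like that of Cd34, was in WT replicate 3. The part of endothelial RNA in the levels of Cd34 and Ly6a was not tested.

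Gsn measured 595.7, 543.4, 598.3 and 492.5 CPM in the WT replicates 1 to 4, in that order, against 487.0, 270.6, 224.8 and 226.4 CPM in the KL-/- replicates 1 to 4. KL-/- replicate 1 came close to the lowest WT library and the other 3 lay far below. Gsn fell by 45.8%, from 557.5 ± 50.2 to 302.2 ± 125 CPM (log2 fold change -0.88, SE 0.23, FDR 0.0340). Without KL-/- replicate 1 the FDR was 0.00415 and without WT replicate 4 it was 0.0472. Without any one of the other 6 libraries it was 0.0520 to 0.0917, above the threshold.

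Dpt encodes dermatopontin, a small matrix protein that binds decorin and takes part in collagen fibril formation. It measured 42.5, 49.8, 58.4 and 35.5 CPM in the WT replicates 1 to 4, in that order, against 25.3, 30.5, 11.7 and 13.2 CPM in the KL-/- replicates 1 to 4. The groups did not overlap, and KL-/- replicates 3 and 4 were lowest. Dpt fell by 56.8%, from 46.5 ± 9.80 to 20.1 ± 9.20 CPM (log2 fold change -1.21, SE 0.30, FDR 0.0283). It kept an FDR under 0.05 without WT replicate 4 (0.0339), KL-/- replicate 1 (0.0417) or KL-/- replicate 2 (0.00908), and had 0.0507 to 0.0781 without any one of the other 5.

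Clec3b (chr9:123150946-123157432, plus strand) encodes tetranectin, a secreted C-type lectin that binds plasminogen. It measured 33.0, 39.5, 44.2 and 24.2 CPM in the WT replicates 1 to 4, in that order, against 18.5, 22.8, 6.38 and 11.4 CPM in the KL-/- replicates 1 to 4. KL-/- replicate 2 came within 2 CPM of WT replicate 4 and KL-/- replicate 3 was lowest. Clec3b fell by 58.2%, from 35.2 ± 8.66 to 14.8 ± 7.30 CPM (log2 fold change -1.26, SE 0.34, FDR 0.0389), the largest change in size of the 9. The FDR was 0.0381 without WT replicate 4 and 0.0148 without KL-/- replicate 2, and 0.0544 to 0.108 without any one of the other 6.

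Smoc2 (chr17:14279506-14404790, plus strand) encodes a matricellular protein related to SPARC. It measured 136.0, 154.5, 204.7 and 104.5 CPM in the WT replicates 1 to 4, in that order, against 106.6, 121.3, 46.0 and 64.3 CPM in the KL-/- replicates 1 to 4. KL-/- replicates 1 and 2 lay within the WT range and replicates 3 and 4 below it. The means were 149.9 ± 41.9 and 84.6 ± 35.3 CPM (log2 fold change -0.83, SE 0.30, FDR 0.0936), and the test was passed only without KL-/- replicate 2 (FDR 0.0400).

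Mfap5 (chr6:122513676-122529287, plus strand), a glycoprotein of the fibrillin microfibril, measured 13.6, 23.8, 24.2 and 9.86 CPM in the WT replicates 1 to 4, in that order, against 16.4, 11.1, 7.34 and 6.22 CPM in the KL-/- replicates 1 to 4. The WT libraries fell into a higher pair, replicates 2 and 3, and a lower pair, and KL-/- replicate 1 exceeded that lower pair while KL-/- replicate 2 exceeded WT replicate 4. The log2 fold change was -0.79 (SE 0.36, FDR 0.159), with no call in any of the 8 fits that left a library out.

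Pcolce (chr5:137605107-137611404, minus strand) encodes the enhancer of the proteinase that cuts the C-propeptide from fibrillar procollagens. It measured 32.7, 55.4, 61.0 and 27.5 CPM in the WT replicates 1 to 4, in that order, against 27.1, 31.6, 14.6 and 19.1 CPM in the KL-/- replicates 1 to 4. Only KL-/- replicate 2 reached the WT range. The means were 44.2 ± 16.5 and 23.1 ± 7.69 CPM (log2 fold change -0.93, SE 0.30, FDR 0.0659), and Pcolce was called without WT replicate 4 (FDR 0.0405) or KL-/- replicate 2 (FDR 0.0383).

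For single genes, an exact two-sided permutation test of mean log2 CPM between 4 and 4 libraries cannot go below 0.0286. Cd34, Gsn, Dpt and Clec3b reached that value, as any gene without overlap between the genotypes must. Exact permutation p-values were 0.0571 for Pcolce, 0.0857 for Smoc2, 0.114 for Pdgfra, 0.143 for Mfap5 and 0.314 for Ly6a. The calls of Gsn, Dpt and Clec3b were close to the threshold. With the robust option of the same edgeR test, chosen after seeing the data, their FDR was 0.0503, 0.0505 and 0.0682. In that fit 0 of the 9 markers were called, and 6.48% of all genes were lower. With DESeq2, 6 of the 9 were called, namely the same 3 with Pdgfra (FDR 0.0375), Cd34 (0.0184) and Pcolce (0.00948), in a fit that called 9.11% of all genes lower.

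**Figure D2:**
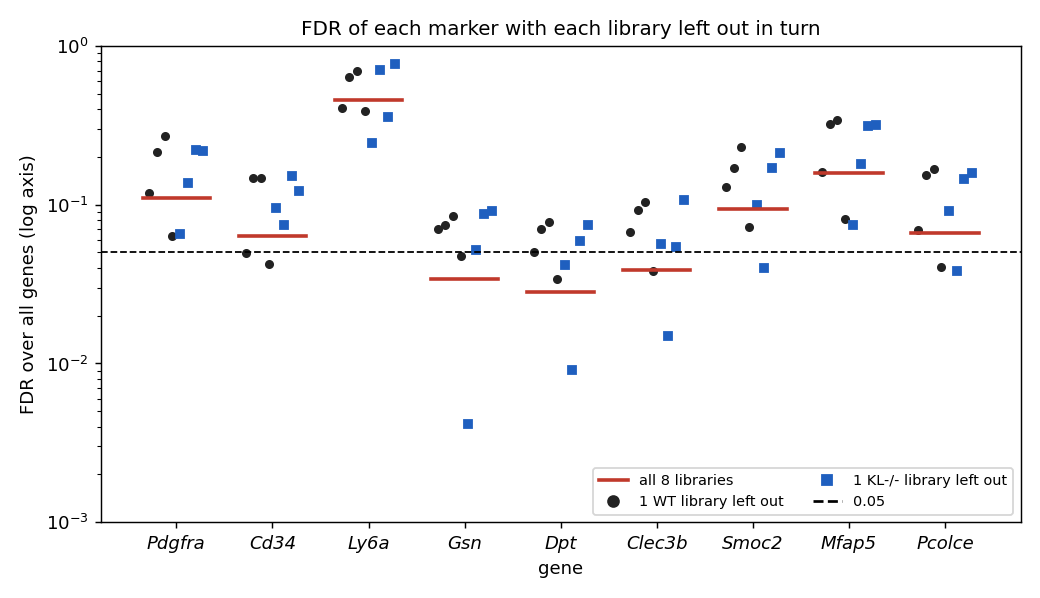
FDR of each marker over all genes by edgeR's quasi-likelihood test (y axis, log scale) with all 8 libraries (red line) and with 1 WT (circle) or 1 KL-/- (square) library left out, beside the threshold of 0.05 (dashed). With all 8 libraries Gsn, Dpt and Clec3b lie below the threshold, and each crosses it in 5 or 6 of the 8 fits.

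The number of markers called depended on which mouse was included. It was 0 without WT replicate 2, WT replicate 3, KL-/- replicate 3 or KL-/- replicate 4, 1 without WT replicate 1, 2 without KL-/- replicate 1, 4 without KL-/- replicate 2 and 5 without WT replicate 4. The share of all genes called lower moved too, from 6.67% with all 8 libraries to 2.73% to 3.00% in the fits with 0 markers called. It was 4.27% without WT replicate 1, 4.21% without KL-/- replicate 1, 9.83% without KL-/- replicate 2 and 5.51% without WT replicate 4. All 9 log2 fold changes stayed negative in each of these 8 fits. With KL-/- replicate 3 left out, and its batch date with it, the median of the 9 was -0.66 and Dpt and Clec3b had an FDR of 0.0591 and 0.0544. The share of all genes lower at an FDR under 0.05 was 2.82% in that fit.

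The 9 markers varied together from mouse to mouse within a genotype. WT replicate 3 was the highest of the 8 libraries for all 9, and WT replicate 4 the lowest WT library for all 9. Among KL-/- libraries, replicate 3 was the lowest of the 8 for 7 markers and replicate 4 for the other 2, Ly6a and Mfap5, while replicate 1 was the highest KL-/- library for 5 markers and replicate 2 for 4. KL-/- replicate 4 lay below every WT library for all 9, replicate 3 for 8, replicate 2 for 6 and replicate 1 for 5.

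**Figure D3:**
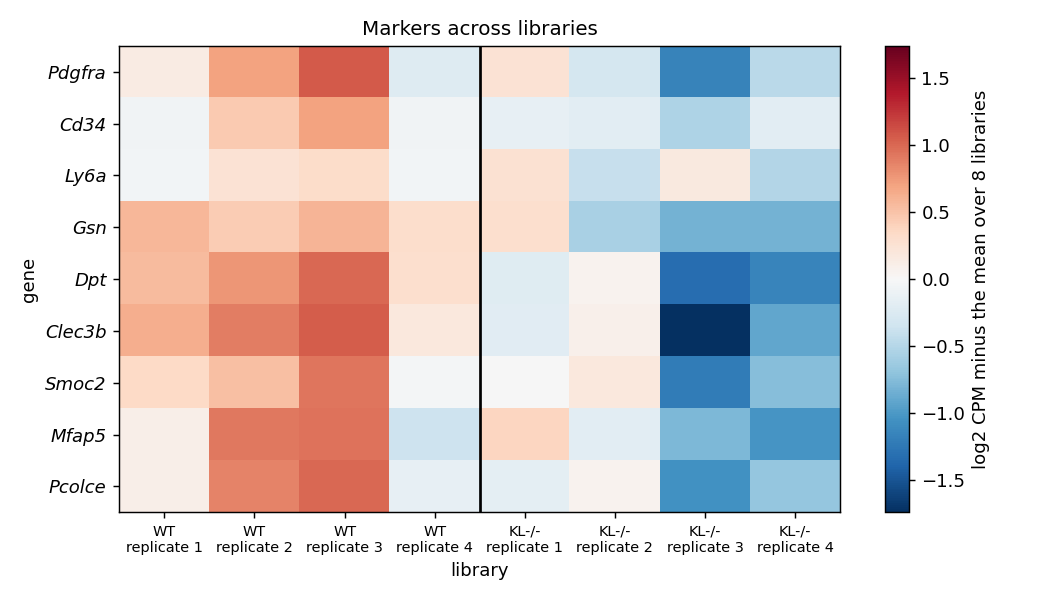
Each marker's log2 CPM minus its mean over the 8 libraries (color scale, log2 units), with markers in rows and libraries in columns, WT left of the line and KL-/- right of it. WT replicates 2 and 3 are high and KL-/- replicates 3 and 4 low for most markers, and Ly6a departs from this in KL-/- replicate 3 at 37.0 CPM.

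After each genotype's mean was subtracted from log2 CPM, 35 of the 36 pairs of markers had a positive Pearson r over the 8 libraries, with a median of 0.74 and a range of -0.05 to 0.98. The points share library and depth, and the r is a description. Pcolce had the highest median r with the other 8, 0.89, followed by Pdgfra at 0.85 and Smoc2 at 0.84. Ly6a was least like the others, with a median r of 0.23, and its pair with Clec3b gave the 1 negative value. Gsn, at 0.61, was next above Ly6a.

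Set against Pdgfra in the same library, no marker separated the genotypes. The log2 ratio of each of the other 8 to Pdgfra overlapped between WT and KL-/-. It differed most for Clec3b, from 0.58 ± 0.23 in WT to 0.05 ± 0.45 in KL-/- (SD, n = 4), and for Dpt, from 0.99 ± 0.27 to 0.53 ± 0.45. In the other direction, the ratio for Ly6a went from 0.63 ± 0.39 to 1.24 ± 0.68 and that for Cd34 from 1.86 ± 0.23 to 2.18 ± 0.42. Gsn, Smoc2, Mfap5 and Pcolce kept a mean difference in log2 ratio between -0.12 and 0.04.

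The genes whose log2 CPM most resembled the mean standardized level of the 9 markers over the 8 libraries were Rarres2, Laptm5, Ifi27l2a, Plxdc2, Prkcdbp, C1qb, Loxl1 and Olfml1, with Pearson r from 0.989 to 0.994. Rarres2 encodes the chemoattractant chemerin, Loxl1 an elastin crosslinking enzyme, Laptm5 a lysosomal protein of haematopoietic cells and C1qb a chain of complement C1q made by macrophages. Laptm5 went from 6.66 ± 1.66 to 3.60 ± 1.08 CPM (log2 fold change -0.88, FDR 0.0399) and Loxl1 from 27.1 ± 8.37 to 14.7 ± 4.01 CPM (-0.88, FDR 0.0437), and both were lower by edgeR's quasi-likelihood test. Since the 8 were chosen for their likeness over all libraries, genotypes included, the direction of these differences was fixed by the choice. The other 6 had log2 fold changes of -0.49 to -1.30 with an FDR from 0.0513 to 0.107.

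Of 50 other genes known from FAPs and muscle fibroblasts, 48 were measured, 16 (33.3%) were lower at an FDR under 0.05 and 0 were higher. Among all genes 6.67% were lower. The number lower of the 48 was 25 with library totals or the likelihood ratio test, fits that called 16.9% and 8.76% of all genes lower. It ranged from 5 without KL-/- replicate 4 (2.73% of all genes) to 22 without KL-/- replicate 2 (9.83%). It was 6 without WT replicate 2 (3.00%) or WT replicate 3 (2.88%), 7 without KL-/- replicate 3 (2.82%) and 10 without WT replicate 1 (4.27%). The 48 genes had a median log2 fold change of -0.91, and 43 of them were negative. In 17 (35.4%), every KL-/- library lay below every WT library, beside 9.47% of all genes. Cxcl14, a chemokine of stromal cells, fell from 101.3 ± 22.9 to 36.4 ± 8.62 CPM (log2 fold change -1.48, SE 0.20, FDR 0.00388). Igfbp6, an insulin-like growth factor binding protein, fell from 29.3 ± 2.76 to 14.7 ± 3.84 CPM (-1.0, SE 0.17, FDR 0.00760). Gfpt2, an enzyme of hexosamine synthesis, fell from 6.6 ± 0.95 to 3.33 ± 0.84 CPM (-0.99, SE 0.19, FDR 0.0114). These 3, named for the smallest p of the list, were called in all 8 fits that left a library out. Among the other called genes of the list, this number ran from 0 for Tnfaip6, 1 for Meox1 and 3 for Dcn to 8 for Has2 and Efemp1.

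The 6 transcription factors measured in the same list are named after their values were seen. Meox1, a homeobox factor, fell from 5.8 ± 0.81 to 3.62 ± 1.03 CPM (log2 fold change -0.69, SE 0.20, FDR 0.0488), without overlap, and was called in 1 of the 8 fits that left a library out. Hic1, a zinc finger factor of mesenchymal progenitors, was at -0.83 (SE 0.33, FDR 0.119). Prrx1, a homeobox factor of limb mesenchyme, averaged 111.2 ± 6.36 CPM in WT against 108.8 ± 10.6 CPM in KL-/- muscle (log2 fold change -0.03, SE 0.08, FDR 0.810). Tcf7l2, used as a marker of muscle connective tissue fibroblasts, was at 5.64 ± 1.33 and 5.57 ± 0.55 CPM (-0.02, SE 0.18, FDR 0.962). Osr1, which marks embryonic muscle connective tissue, had a log2 fold change of -0.36 (SE 0.23, FDR 0.301) and Osr2 of 0.06 (SE 0.13, FDR 0.770), or -0.05 with library totals. Apart from Meox1 none of the 6 passed the test, and the groups of the other 5 overlapped.

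**Figure D4:**
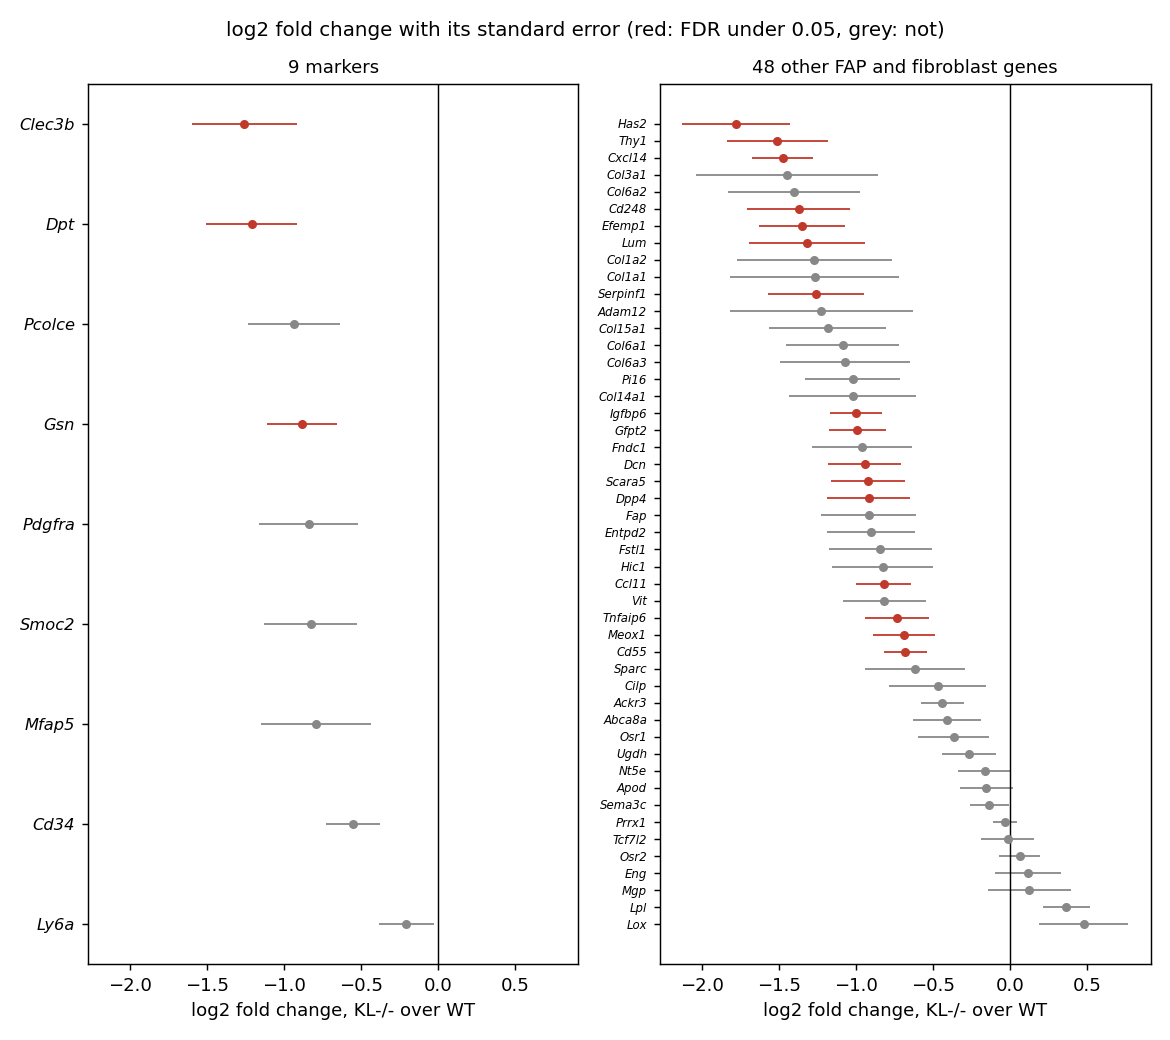
Log2 fold change of KL-/- over WT with its standard error (x axis) for the 9 markers (left) and 48 other FAP and fibroblast genes (right), one gene per line, in red at an FDR under 0.05. All 9 markers and 43 of the 48 other genes lie below 0, while Prrx1, Tcf7l2 and Osr2 lie beside it.

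Genes that work with single markers were counted in lists of their own, beside the 6.67% of all genes lower and the 7.35% higher. Of 6 PDGF ligands and other PDGF receptors, 1 was lower: Pdgfc, a ligand of the PDGF receptor alpha, went from 1.56 ± 0.40 to 0.81 ± 0.24 CPM (log2 fold change -0.96, SE 0.27, FDR 0.0449), a call kept in 1 of the 8 fits that left a library out. The list had a median log2 fold change of -0.11. Of the CD34 family, Podxl2 at 0.20 (SE 0.06, FDR 0.0583) and Podxl at 0.12 (SE 0.22, FDR 0.749) did not pass. Of 12 listed Ly6 genes 3 were measured, and Ly6e fell (log2 fold change -0.38, SE 0.10, FDR 0.0343), with a call in 3 of the 8 such fits. Ly6c1 at 0.31 (SE 0.14, FDR 0.161) and Gpihbp1 at 0.26 (SE 0.13, FDR 0.197) were positive and not called, and the median of the 3 was 0.26.

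Beside Gsn, 8 of 10 genes of the gelsolin family and of actin severing were measured. Their median log2 fold change was -0.02, and 1, the supervillin gene Svil, was higher (log2 fold change 0.20, SE 0.05, FDR 0.0390). That call was lost when library totals replaced the TMM factors (FDR 0.281) and was kept in 1 of the 8 fits that left a library out. Beside Smoc2, 0 of the 6 measured relatives passed in either direction, with Sparc at -0.62 (SE 0.32, FDR 0.219) and Sparcl1 at -0.12 (SE 0.12, FDR 0.520). Of the 6, 4 were negative, while Smoc1 at 0.64 (SE 0.21, FDR 0.0674) and Spock2 at 0.735 (SE 0.23, FDR 0.0634) were positive. With DESeq2 1 of the 6 was higher, in a fit that called 1313 of all genes higher.

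Beside Mfap5, 4 of 20 microfibril and elastic fibre genes were lower and 0 higher, with a median of -0.35. With library totals 8 were lower, in a fit that called 16.9% of all genes lower. Fbn1, the fibrillin to which Mfap5 binds, fell from 89.8 ± 36.8 to 34.7 ± 14.0 CPM (log2 fold change -1.38, SE 0.34, FDR 0.0295). Emilin1 (-0.89, FDR 0.0330), Loxl1 and Emilin2 (-1.23, FDR 0.0485) were the other 3. Fbn1, Emilin1, Loxl1 and Emilin2 were each called in 3 of the 8 fits that left a library out. Beside Pcolce, 0 of the 3 measured procollagen C-proteinases and enhancers passed, with Bmp1 at -0.59 (SE 0.25, FDR 0.136) and Pcolce2 at -0.98 (SE 0.38, FDR 0.113).

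Of 13 factors by which FAPs are known to act on muscle, 8 were measured, 1 was lower and 1 higher. Igf1, a growth factor for muscle fibres, fell from 36.7 ± 13.5 to 14.2 ± 6.49 CPM (log2 fold change -1.37, SE 0.35, FDR 0.0315) and was called in 3 of the 8 fits that left a library out. Rspo3, an enhancer of Wnt signalling, rose from 0.62 ± 0.17 to 1.16 ± 0.20 CPM (0.89, SE 0.26, FDR 0.0492), a call made in 1 of these fits and lost with library totals (FDR 0.0565). The median of the 8 was -0.19.

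Marker lists of other cells were set beside the FAP markers, and their counts beside the 6.67% of all genes lower and the 7.35% higher. The 9 markers summed to between 807.4 and 1182 CPM in WT and between 403.5 and 804.3 CPM in KL-/- libraries, without overlap. The nearest pair, WT replicate 4 and KL-/- replicate 1, lay close together, and Gsn alone gave 492.5 and 487.0 CPM of their sums. The 48 other FAP and fibroblast genes overlapped, at 2931 to 7198 CPM in WT and 2323 to 3864 CPM in KL-/-. Tenocyte genes, which tendon shares in part with matrix-producing fibroblasts, summed to between 194.5 and 252.7 CPM in WT and between 58.2 and 150.2 CPM in KL-/-. Of these 8 genes 3 were lower (Thbs4, Kera and Fmod), with a median of -0.93. Thbs4 at 117.8 ± 8.88 and Fmod at 58.9 ± 11.2 CPM gave most of the WT sums. Negative log2 fold changes were seen in 7 of the 8, while Scx was at 0.16 (SE 0.18, FDR 0.563). Genes of macrophages and other leukocytes summed to between 69.8 and 145.4 CPM in WT and between 49.2 and 85.5 CPM in KL-/-, with 2 of 11 lower (Itgam and Adgre1, 7 of 11 with DESeq2) and a median of -0.88. Itgam, Adgre1 and Thbs4 were each called in 3 of the 8 fits that left a library out, and Kera and Fmod in 2. None of the markers of either list had a mean of 0 in either genotype. The part of these cells in the levels of the 9 markers was not tested.

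The medians of 5 further lists were above 0. Satellite cell genes had 0 of 7 past the test and a median of 0.11, with Cdh15 at 0.05 and Sdc4 at 0.04, which with library totals were -0.07 and -0.08 and the median -0.01. Schwann cell genes had 4 of 8 higher, among them Sox10 (log2 fold change 0.95, FDR 0.0125) and Prx (0.80, FDR 0.0242), and a median of 0.76. Pericyte and smooth muscle genes had 1 of 8 higher, Tagln (0.52, FDR 0.0394), and adipocyte genes 1 of 5, Fabp4 (0.27, FDR 0.0300), and with library totals neither was called. The adipocyte genes had a median of 1.27 and summed to between 184.9 and 215.6 CPM in WT and between 216.2 and 293 CPM in KL-/- libraries, without overlap. Of 8 genes of fast fibres, 1 was higher, Actn3 (0.67, FDR 0.0103), and all 8 had a positive log2 fold change, 7 with library totals.

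**Figure D5:**
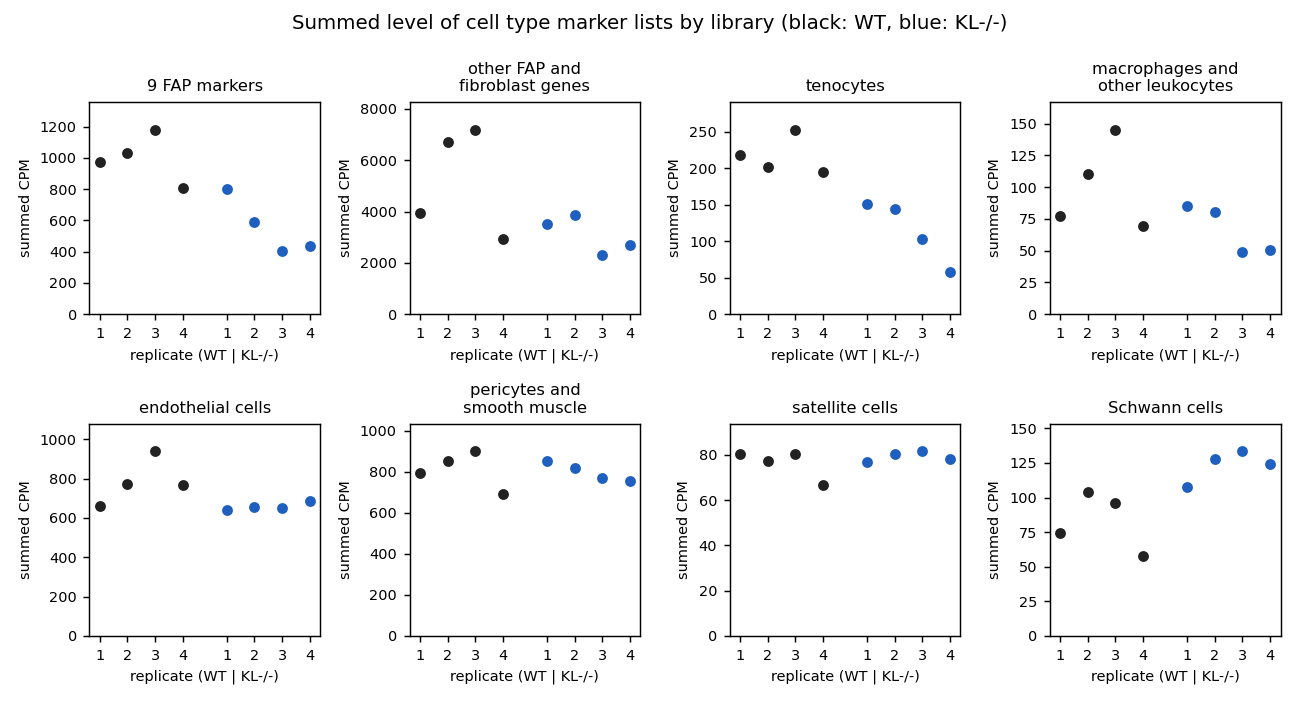
Summed CPM (y axis, from 0) of the 9 FAP markers and of 7 other gene lists in each library, with WT replicates 1 to 4 in black and KL-/- replicates 1 to 4 in blue. Among these lists, sums of the FAP markers and tenocyte genes are lower in every KL-/- library than in any WT library. Those of Schwann cell genes are higher. The nearest WT and KL-/- libraries stand at 807.4 and 804.3 CPM for the FAP markers and at 104 and 107.6 CPM for Schwann cell genes. The other FAP and fibroblast genes overlap, at 2931 to 7198 CPM in WT and 2323 to 3864 CPM in KL-/-. WT replicate 3 is the highest library in every list but those of satellite and Schwann cell genes. Satellite cell genes stay between 66.6 and 81.6 CPM.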

How the data were processed

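Whole tibialis anterior RNA (100 ng per library) of 4 WT and 4 KL-/- mice was sequenced. The labels call the libraries total RNA and the methods mRNA. Per the labels and the study's methods, reads were mapped by STAR to mouse build mm10, and the authors deposited raw gene counts from featureCounts. The annotation version and strand setting are not given in the sources used here. The exon length column deposited with the counts served for CPM per kb. All 8 columns of counts were used.

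Counts of all 12551 genes were fitted in R 4.3.3 with edgeR 4.0.16 (TMM factors, quasi-likelihood test, genotype as the one term), Benjamini-Hochberg adjustment and an FDR under 0.05. The fit was tested on simulated data. limma 3.58.1 (voom) and DESeq2 1.42.0 were alternatives, with edgeR's likelihood ratio test, other scalings, a minimum of 10 counts, a replicate block and leaving out each library. The robust test and the edgeR 3 form of the test were added after seeing the data. No 2 libraries of a genotype agreed within sampling noise. The 9 markers and the gene lists were chosen with earlier results of these data known. Beside the markers, the rule named up to 3 called genes of a list in each direction by smallest p, the 2 with the highest CPM in a list with none, and the 8 genes most like the markers. Some further genes were named after their values were seen.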

Additional observations from a re-analysis of the deposited data

Results flagged for a closer look

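Cd34 in KL-/- replicate 3 stood at 48.2 CPM, apart from the other 3 KL-/- libraries at 61.3 to 63.5 CPM. Its gap to the nearest library was 0.857 of the range of the group, above Dixon's critical value of 0.829 for 4 samples. Levels of the 9 markers in both genotypes gave 18 such groups, and chance alone would flag about 1 in 20. Cd34 was the 1 flagged.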

How the results depend on the processing

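All 9 markers had a negative log2 fold change in all 18 fits, and 0 were higher in any. Their median was -0.84 and lay between -0.64 (without WT replicate 3) and -1.10 (without KL-/- replicate 1). The number lower, 3 in the report, was 5 with library totals, 6 with DESeq2, 6 with the likelihood ratio test and 0 with the robust test, and 0 to 5 when a library was left out. The share of all genes lower was 6.67% in the report. It was 16.9% with library totals, 9.11% with DESeq2, 8.76% with the likelihood ratio test and 6.48% with the robust test. The number of markers lower was 3 with RLE factors, limma-voom, a minimum of 10 counts and the edgeR 3 test. Of the 48 other FAP genes, 16 were lower, and 25 with library totals, 25 with the likelihood ratio test, 7 with the replicate block and 5 to 22 when a library was left out. Library totals shifted the median of all genes to -0.13, with 2127 genes lower and 492 higher in place of 837 and 922. Among all genes, 343 to 1234 were lower and 404 to 1521 higher when a library was left out. With a replicate block 2 of the 9 markers were lower, Clec3b having an FDR of 0.0596, and 323 genes were lower and 348 higher. Same-numbered libraries correlated at -0.15, 0.18, -0.37 and 0.02, and 1 of 4 numbers was its own best partner, so no pairing by number was seen. With 4 mice per genotype these values cannot exclude a pairing. What set the differences between fits was not tested. Depth gave each marker at least 154 counts in every library, and 4 mice per genotype limit the precision.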
